A study of Mus musculus with 15 samples.

Results

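The nuclear genes for subunits of the respiratory chain and ATP synthase were described here in hepatocytes of adult male WT C57BL/6JJcl mice, sorted by DNA content. Members were taken by symbol, from the Nduf subunit genes, Sdha to Sdhd, and the Uqcr, Cox4 to Cox8 and Atp5 genes, and had to reach 10 counts in at least 3 of the 15 libraries. Of 106 matching symbols among 55984 in the count table, 84 were members, 14 carried a pseudogene suffix and 8 stayed under the count minimum. The members comprised 38 genes of complex I, 4 of complex II, 8 of complex III, 16 of complex IV and 18 of complex V, with Ndufa4 and Ndufa4l2 placed under complex IV. All 84 passed the filter on low counts used for the tests. By annotation Ndufb4b is a long noncoding RNA and Ndufb4c and Cox6c2 are processed pseudogenes, although their symbols match. Just inside the count minimum, Cox6b2 reached 10 counts in 3 libraries (highest 16 counts) and Cox7a1 in 4 (highest 18 counts), and just outside it Cox4i2 and Ndufb11b reached at most 8 counts.

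Hepatocytes from 4 mice were stained with the DNA dye Hoechst in the presence of reserpine, and live cells were sorted in a single round. The 2n-whole cells are diploid and the 4n-whole cells are all tetraploid cells. The 4n-bottom gate took tetraploid cells with a lower Hoechst height, which enriches for binucleated cells, and the 4n-top gate took those with a higher height, which enriches for mononucleated cells. Neither gate gives a pure population, and 4n-whole holds both kinds. Each group had 4 libraries, 1 per mouse, except 4n-top with 3, because the study left out the 4n-top library of mouse 1. After sorting, the study spun 2n cells down harder and for longer than 4n cells, so this step and ploidy cannot be told apart.

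Each respiratory complex is built in the inner mitochondrial membrane. Complexes I to IV pass electrons from NADH and succinate to oxygen and, except for complex II, pump protons, and complex V uses the resulting gradient to make ATP. All but complex II combine subunits made in the cytosol from nuclear genes with a few subunits encoded by mitochondrial DNA, so both genomes must be expressed to build them. Core subunits carry the redox centres and catalytic sites, and accessory subunits surround them and are needed for assembly or stability. In the liver this chain supplies the ATP for urea synthesis and gluconeogenesis.

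Library totals ran from 22049498 to 42096421 counts, lowest for 4n-whole mouse 2. The 37 genes of mitochondrial DNA took 20.5 to 26.2% of counts in 2n-whole, 8.84 to 18.5% in 4n-whole, 12.2 to 23.6% in 4n-bottom and 11.9 to 13% in 4n-top. Most of these counts were not from respiratory subunits, whose 13 mitochondrial genes took 3.193 to 3.895% of counts in 2n-whole. The 4n-bottom library of mouse 1 had the 23.6% and lay in the 2n-whole range, apart from the other 4n-bottom libraries. On the counts-per-million (CPM) scale, with library sizes adjusted by the trimmed mean of M-values (TMM), the 8 hepatocyte markers summed to between 82600 and 114000 CPM over all libraries, and the highest sums of endothelial, Kupffer cell, stellate cell and cholangiocyte markers were 35.0, 7.82, 5.56 and 47.4 CPM.

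Levels per length were compared on the transcripts-per-million (TPM) scale, computed from the canonical transcript, as means of the 15 libraries. The 84 members spanned 0.487 to 1270 TPM with a median of 106 TPM. The highest in each complex were Ndufa6 (476 TPM), an accessory subunit of complex I, Sdha (389 TPM), the flavoprotein that oxidises succinate, Uqcrq (365 TPM), a small subunit of complex III, Cox6c (1270 TPM), a small membrane subunit of complex IV, and Atp5f1a (872 TPM), the alpha subunit of the catalytic head of complex V. Atp5f1b, the catalytic beta subunit, stood at 523 TPM.

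Complex IV has tissue-specific isoforms, and the liver libraries held mainly 1 form of each pair. Cox4i1 was at 171 TPM, whereas its hypoxia-linked counterpart Cox4i2 reached at most 8 counts in any library. Cox6a1 was at 516 TPM and Cox8a at 420 TPM, and the muscle forms Cox6a2 and Cox8b reached at most 2 and 7 counts. Cox7a2 was at 93.9 TPM against 0.661 TPM for the muscle form Cox7a1, Cox6b1 at 180.5 TPM against 0.487 TPM for the testis form Cox6b2, and Ndufa4 at 120 TPM against 1.14 TPM for Ndufa4l2. Cox7b2, Cox8c, Ndufa11b and Ndufs6b had 0 counts in every library, which at 3 counts allows up to 0.0693 to 0.120 CPM (counting error only). The membrane ring of ATP synthase is made from identical c subunits encoded by 3 genes, of which Atp5mc1 was at 251 TPM, Atp5mc3 at 227 TPM and Atp5mc2 at 44.3 TPM.

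Overlapping gene models can change counts. Exons of 8 members shared their strand and position with another annotated gene or a further locus of the same symbol, and these had a median of 30.5 TPM against 110 TPM for the other 76. Ndufb2 was at 0.853 TPM and Ndufb8 at 6.72 TPM, both in complex I and both overlapped on the same strand by another model, but Atp5f1b (523 TPM) and Ndufa13 (173 TPM) were overlapped in the same way and stood above the members' median. TPM also depends on the canonical length, which is 4389 bases for Ndufb2 and 682 bases for Ndufb8. Without that divisor their 2n-whole means were alike, at 2.285 and 2.528 CPM. In all, 14 members have a near-identical copy elsewhere in the genome, at 95% identity or more over a minimum share of the member's transcript. Their counts are uncertain where reads could be split or dropped. Uqcrb and Ndufs5 are among them. Ndufb4 is not, but its transcript is long (971 bases), and the shorter Ndufb4b and Ndufb4c (482 and 390 bases) have 2 such copies each. The strand setting of the counting is not given in the sources used here, and 55 members overlap an exon on the other strand. How far these overlaps and copies set the levels was not tested.

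Tetraploid hepatocytes (4n-whole) were first set against diploid ones (2n-whole). Summed over all 84 members, levels in TMM-scaled CPM were 8536 ± 624 (SD, n = 4) in 2n-whole and 8200 ± 501 (n = 4) in 4n-whole. In the fit across 17488 genes with mouse as a block (edgeR quasi-likelihood test, Benjamini-Hochberg adjustment), 11 of the 84 members passed an adjusted p of 0.05, of which 10 fell and 1 rose in 4n-whole, whereas scaling by total counts in place of TMM gave 20 members, 16 higher and 4 lower. Of all tested genes 5.47% passed, 2.54% as lower and 2.93% as higher. With a further limit of 0.5 on the absolute log2 fold change, 8 members passed, all lower, against 3.47% of all genes. The members' median log2 fold change was -0.08 against -0.01 for all tested genes, with 54 members negative and 30 positive (50.7% and 49.3% of all genes). Scaled by total counts the median was 0.13 against 0.20 for all genes, so its sign depended on the scaling, and it lay below that of all genes under both. Total counts without mitochondrial and ribosomal RNA genes gave 13 calls and kept all 11. The shares of all genes called under these other scalings are not given here. Of 19 alternatives, only total counts of all genes gave a median of the other sign. In bulk RNA, fewer cells of a type and less RNA per cell cannot be told apart.

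In this fit the members that passed were accessory subunits. In complex I, 6 fell and 1 rose, all among its 31 accessory members. In complex III only Uqcrb fell, in complex IV Cox7b, Cox6b1 and Ndufa4 fell, and in complexes II and V no member passed. That pattern depended on the processing: with total counts 1 member of complex II (Sdhc) and 4 of complex V (Atp5f1d, Atp5f1e, Atp5mc1 and Atp5mc2) passed, with ComBat-seq before DESeq2 Sdhc, Atp5f1c, Atp5f1d and Atp5mc3 passed, and with DESeq2 and the mouse block Atp5f1c did. A list of 24 core and landmark subunits over all complexes had 0 calls, which at 5.47% of all genes is near the background, and it had 8 with total counts and 5 with ComBat-seq before DESeq2. Of 11 tested isoform genes (16 listed) the 3 that fell were Cox7b, Cox6b1 and Ndufa4. Whether accessory and core subunits differ was not tested as such. On GRCm39 (GENCODE M39) the 11 protein-coding genes are spread over 8 chromosomes, with Cox7b at chrX:105055638-105066240, Cox6b1 at chr7:30316282-30325616, Uqcrb at chr13:67048655-67053443, Ndufa4 at chr6:11897630-11907496, Ndufa3 at chr7:3620342-3623326, Ndufa5 at chr6:24518659-24528012, Ndufs5 at chr4:123606481-123612002, Ndufc2 at chr7:97049210-97057022, Ndufa12 at chr10:94034582-94057450, Ndufb7 at chr8:84293300-84298255 and Ndufb4 at chr16:37467242-37474815.

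**Figure D1:**
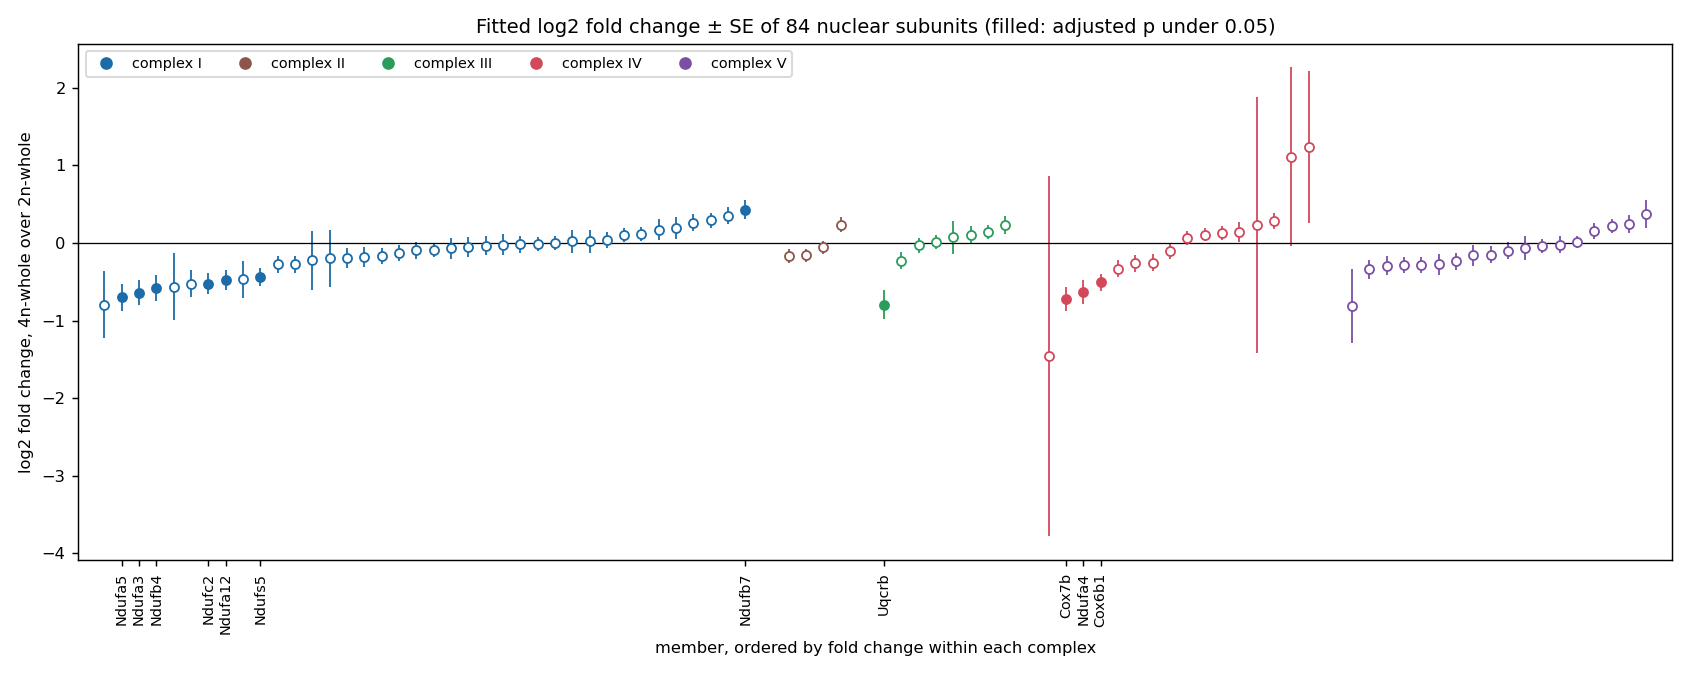
Fitted log2 fold change of 4n-whole over 2n-whole for each of the 84 members, grouped by complex and ordered within it; bars are standard errors and filled points, named on the axis, passed an adjusted p of 0.05. The 10 filled points below 0 and the 1 above it are accessory subunits of complexes I, III and IV, and the widest bars belong to low-count genes such as Cox6b2 in complex IV. Scaled by total counts, the median of all points was 0.13 in place of -0.08.

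Cox7b, a small complex IV subunit, had the smallest p. In 2n-whole its level was 146, 128, 89.2 and 130 CPM in mice 1 to 4, and in 4n-whole 120, 48.3, 80.8 and 55.2 CPM. It was lower in 4n-whole in 4 of 4 mice, with the largest gaps in mice 2 and 4, and the groups overlapped because 4n-whole mouse 1 lay above 2n-whole mouse 3. The log2 fold change was -0.72 ± 0.16 (SE; adjusted p = 0.0066, edgeR).

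Cox6b1, which links the monomers of the complex IV dimer on the intermembrane side, was at 80.3, 75, 59.9 and 73.0 CPM in 2n-whole and at 63.2, 43.5, 53.0 and 42.3 CPM in 4n-whole. It too was lower in 4 of 4 mice, with overlap only between mouse 1 of 4n-whole and mouse 3 of 2n-whole. Its log2 fold change was -0.51 ± 0.11 (SE; adjusted p = 0.0076, edgeR).

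Ndufa4, first assigned to complex I and now placed with complex IV, was at 39.4, 36.8, 33.1 and 43.7 CPM in 2n-whole and at 31.5, 16.1, 28.7 and 22.4 CPM in 4n-whole. These groups did not overlap. The log2 fold change was -0.64 ± 0.15 (SE; adjusted p = 0.013, edgeR).

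Uqcrb, the subunit of complex III near the ubiquinone site, was at 136, 108, 63.7 and 114 CPM in 2n-whole and at 98.6, 33.6, 65.7 and 47.3 CPM in 4n-whole. It was lower in 3 of 4 mice and close to equal in mouse 3. Its log2 fold change of -0.80 ± 0.18 (SE; adjusted p = 0.0099, edgeR) was the most negative of the 73 members with a mean of at least 10 CPM, and 3 annotated pseudogene copies of its sequence make its count uncertain.

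In complex I, Ndufa5, an accessory subunit of the peripheral arm, was at 44.6, 36.6, 21.4 and 40.1 CPM in 2n-whole and at 28.9, 15.0, 24.1 and 17.5 CPM in 4n-whole. Ndufa3, an accessory membrane subunit, was at 40.4, 34.3, 23.2 and 42.0 CPM and at 27.8, 16.9, 26.0 and 18.1 CPM in the same order. For both, 3 of 4 mice were lower and mouse 3 was higher in 4n-whole, and the 2n-whole library of mouse 3 was the lowest of its group. The log2 fold changes were -0.70 ± 0.17 for Ndufa5 and -0.64 ± 0.16 for Ndufa3 (SE; adjusted p = 0.016 for each, edgeR).

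Ndufs5, an accessory subunit on the intermembrane side, was at 53.9, 44.7, 39.4 and 53.9 CPM in 2n-whole and at 39.9, 25, 38.5 and 38.4 CPM in 4n-whole. It was lower in 4 of 4 mice (log2 fold change -0.44 ± 0.12, adjusted p = 0.024, edgeR), and the 4n-whole library of mouse 2 lay far below the other 3. Ndufc2, a membrane-arm subunit, fell in 4 of 4 mice from a mean of 36.8 ± 4.14 to 25.7 ± 6.75 CPM (SD, n = 4 each; log2 fold change -0.52 ± 0.14, adjusted p = 0.025, edgeR). Ndufa12, an accessory subunit added to the peripheral arm late in assembly, fell in 4 of 4 mice from 29.8 ± 5.73 to 21.4 ± 4.55 CPM (-0.48 ± 0.13, adjusted p = 0.026, edgeR). Ndufb4, another membrane-arm subunit, fell in 3 of 4 mice from 13.7 ± 3.64 to 8.94 ± 1.67 CPM (-0.58 ± 0.17, adjusted p = 0.043, edgeR), and its 2n-whole library of mouse 3, at 8.21 CPM, lay inside the 4n-whole range.

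The 1 member that rose was Ndufb7, an accessory subunit of the membrane arm. Its level was 57.7, 56.9, 50.8 and 59.5 CPM in 2n-whole and 65.8, 86.4, 68.6 and 83.3 CPM in 4n-whole, without overlap and higher in 4 of 4 mice. The log2 fold change was 0.43 ± 0.12 (SE; adjusted p = 0.038, edgeR). With an offset for GC content and transcript length it no longer passed (adjusted p = 0.36), whereas the 10 members that fell all passed.

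**Figure D2:**
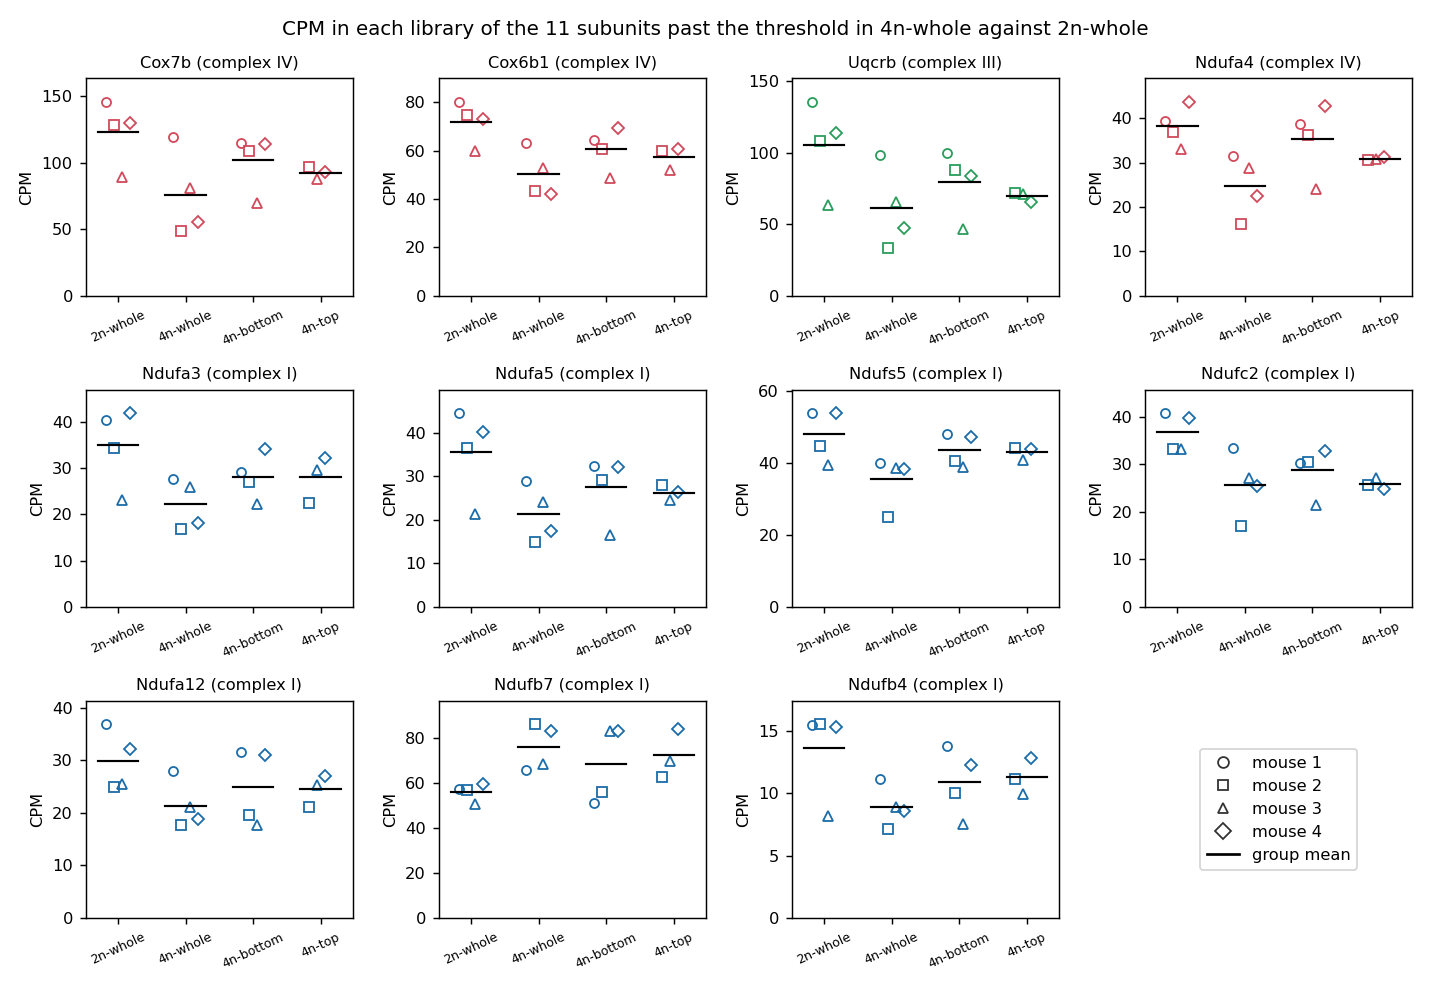
CPM (TMM-scaled) in each of the 15 libraries for the 11 members that passed in 4n-whole against 2n-whole; marker shape gives the mouse and the black line the group mean. For 10 of them 4n-whole had the lowest group mean and 2n-whole the highest, and Ndufb7 runs the other way, from 56.2 CPM in 2n-whole to 76.0 CPM in 4n-whole. For all 11 the mean of 4n-whole, which holds both kinds of tetraploid cells, thus lay outside the means of 4n-bottom and 4n-top. The 11 were chosen by their difference between 4n-whole and 2n-whole, which favours this order. The 4n-top mean has no library of mouse 1.

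As a view of the sequence at these genes, 4 promoter stretches are shown, for the 2 members with the most significant fall in complexes III and IV, for the 1 member that rose and for the 1 with a searched motif. They run from 100 bases before to 30 bases after the canonical transcription start in GENCODE M39 on GRCm39, read 5′ to 3′ on the gene's strand, and capitals mark the YY1 motif AAGATGGC. Cox7b lies at chrX:105059193-105059322 (plus strand), Uqcrb at chr13:67053413-67053542 (minus strand), Ndufa3 at chr7:3620272-3620401 (plus strand) and Ndufb7 at chr8:84293200-84293329 (plus strand).
Cox7b: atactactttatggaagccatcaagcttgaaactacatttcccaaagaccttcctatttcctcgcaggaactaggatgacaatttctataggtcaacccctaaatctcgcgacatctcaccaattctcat
Uqcrb: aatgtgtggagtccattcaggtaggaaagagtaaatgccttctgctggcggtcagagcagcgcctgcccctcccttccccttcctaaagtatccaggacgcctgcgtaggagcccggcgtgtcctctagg
Ndufa3: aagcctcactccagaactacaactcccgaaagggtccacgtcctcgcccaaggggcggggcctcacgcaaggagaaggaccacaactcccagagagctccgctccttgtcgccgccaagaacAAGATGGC
Ndufb7: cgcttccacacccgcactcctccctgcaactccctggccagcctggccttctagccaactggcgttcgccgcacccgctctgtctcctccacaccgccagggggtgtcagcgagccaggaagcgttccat
The stretches differ in base composition, with 40.8% G and C at Cox7b, 58.5% at Uqcrb, 61.5% at Ndufa3 and 66.9% at Ndufb7. Motifs of regulators known for respiratory genes were searched on both strands over 300 bases, from 250 before to 50 after the start. The YY1 motif AAGATGGC was in 6 of 82 member promoters (7.32%), against 2.47% of 21757 protein-coding promoters and 3.46% of the 12587 of tested genes, and among the 11 changed members only Ndufa3 held it. The palindromic NRF1 motif was in 4 of 82 (4.88%, against 1.16% and 1.78%), the ETS motif CCGGAAGT that GABPA can bind in 4 of 82 (4.88%, against 4.35% and 6.66%), and the ERR motif TCAAGGTCA in 1 of 82 (1.22%, against 0.473% and 0.342%). None of the changed members held any of these 3. A match is a description of letters in this window and not a measured binding site.

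The other named members did not pass the edgeR test on the TMM scale. In complex V, 9 of 18 members had an unadjusted p under 0.05 and none an adjusted one. Atp5f1c, the rotating gamma subunit, was at 186, 179, 156 and 194 CPM in 2n-whole and at 166, 119, 157 and 144 CPM in 4n-whole (log2 fold change -0.29 ± 0.10, adjusted p = 0.089, edgeR). Atp5mk, a small membrane subunit, had -0.34 ± 0.13 and the c subunit gene Atp5mc3 -0.28 ± 0.11 (adjusted p = 0.12 for each, edgeR). Values of the other sign stood in the same complex, where Atp5f1d, the delta subunit of the central stalk, was higher in 4 of 4 mice, at 143 CPM in 2n-whole and 166 CPM in 4n-whole (0.22 ± 0.09, adjusted p = 0.17, edgeR). Over all complexes 33 of the 84 members had an unadjusted p under 0.05, against 20.4% of all tested genes.

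In complex II the membrane anchor Sdhc had 0.24 ± 0.10 (adjusted p = 0.16, edgeR), from 120 CPM in 2n-whole to 143 CPM in 4n-whole, while Sdha had -0.16 ± 0.08 (adjusted p = 0.30), from 631 to 563 CPM. Both subunits belong to the same complex, and their fitted values had opposite signs. In complex III the core protein Uqcrc2 had -0.23 ± 0.11 and the small subunit Uqcr11 0.23 ± 0.11 (adjusted p = 0.24 for each, edgeR). The most abundant complex V member, Atp5f1a, was at 1051 CPM in 2n-whole and 1060 CPM in 4n-whole.

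The number of calls depended on single mice. The median log2 CPM difference of the 84 members, 4n-whole minus 2n-whole within a mouse, was -0.15, -0.29, 0.15 and -0.11 in mice 1 to 4, so mouse 3 ran against the others, and medians of all tested genes lay between 0 and 0.007. Without mouse 4, 0 members passed (14 had an unadjusted p under 0.05). Without mouse 2, 3 passed, without mouse 3, 20 passed, including all 11, and without mouse 1, 13 passed, 8 of them among the 11. Without the shallow 4n-whole library of mouse 2 alone, 4 of the 11 passed. The share of all tested genes called in each of these fits is not given here. The counts therefore do not show a change particular to the members. The signs of the 11 fitted changes were the same in all 19 alternatives.

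**Figure D3:**
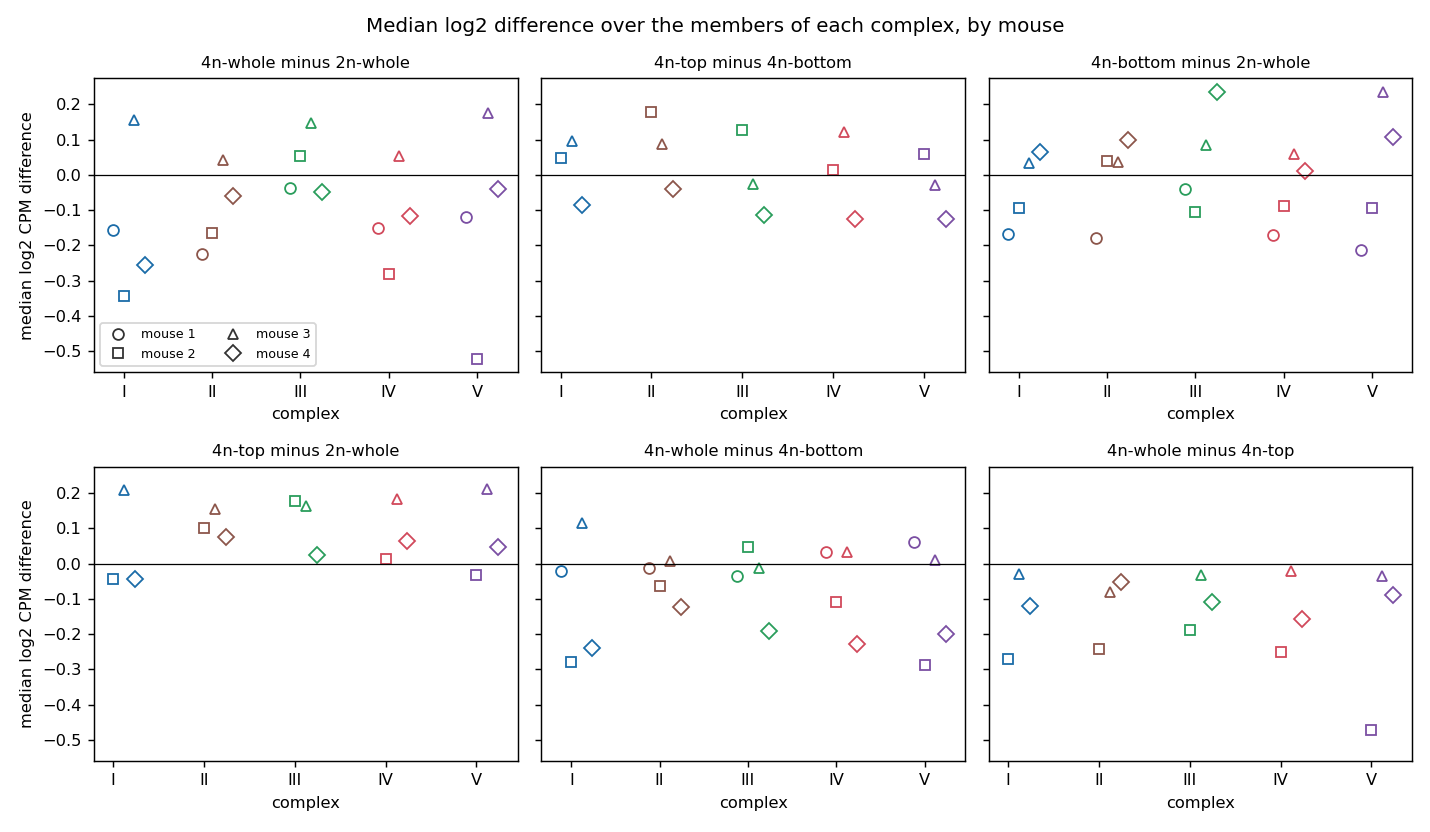
Median log2 CPM difference over the members of each complex, within each mouse, for the 6 comparisons; marker shape gives the mouse and the horizontal line is 0. In 4n-whole minus 2n-whole, mouse 3 lies above 0 in all 5 complexes and mouse 2 reaches -0.52 in complex V. Values are on the TMM scale, and scaling by total counts raised the fitted median over all members from -0.08 to 0.13.

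Markers of lobular position and of other cells moved with the same comparison. All 9 pericentral genes rose in 4n-whole, with summed levels of 593 to 890 CPM in 2n-whole and 926 to 3180 CPM in 4n-whole, and 4 of 9 periportal genes fell, with sums of 10700 to 14500 and 8880 to 11900 CPM. Sums of the 6 cholangiocyte markers reached 47.4 CPM in 2n-whole (median 42.8 CPM) and 31.2 CPM in 4n-whole (median 20.2 CPM), where Krt7 and Cldn7 were at 0 in every library, and 2 of the 4 tested fell. Sums of the 8 endothelial markers were 18.2 to 29.2 and 4.65 to 35.0 CPM (1 fell), those of 8 Kupffer cell markers 0.715 to 7.82 and 1.07 to 2.73 CPM with Vsig4 at 0 in 4n-whole, and those of 8 stellate cell markers 3.48 to 5.56 and 1.77 to 3.55 CPM with Acta2 at 0 in 4n-whole. Lymphocyte and erythroid markers summed to at most 1.95 CPM in any of these libraries and none was tested. With a covariate for non-parenchymal markers, and likewise with one for lobular position, 0 members passed and 24 had an unadjusted p under 0.05 (edgeR), and 219 and 2 of all tested genes passed in these fits. The fitted changes of the 11 kept their sign in both. The 10 lower ones had a median log2 fold change of -0.61 without a covariate, -0.62 with the first and -0.99 with the second, and Ndufb7 had 0.43, 0.21 and 0.56. The median standard error of the 11 was 0.15, 0.21 and 0.37 in the same order.

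The fold changes ran with base composition. Across the 84 members, Spearman's rho between the log2 fold change of 4n-whole over 2n-whole and the GC content of the canonical transcript was 0.39, and across 17463 tested genes it was 0.22. These are descriptions across genes that share the same 8 libraries. The 10 members that fell had a GC content of 41.6 to 52.9% (median 49.6%), Ndufb7 had 59.7%, and the 73 not called had a median of 51.5%. The canonical transcripts of the 10 that fell had a median length of 677 bases, and those of the 73 not called 1179 bases. Spearman's rho between fold change and length was weak, at 0.12 across the members and -0.16 across all tested genes. After the offset for GC content and length, rho between GC content and fold change across the members was 0.10. With it 14 members passed, all lower, 10 of them among the 11, and the share of all genes called is not given here.

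**Figure D4:**
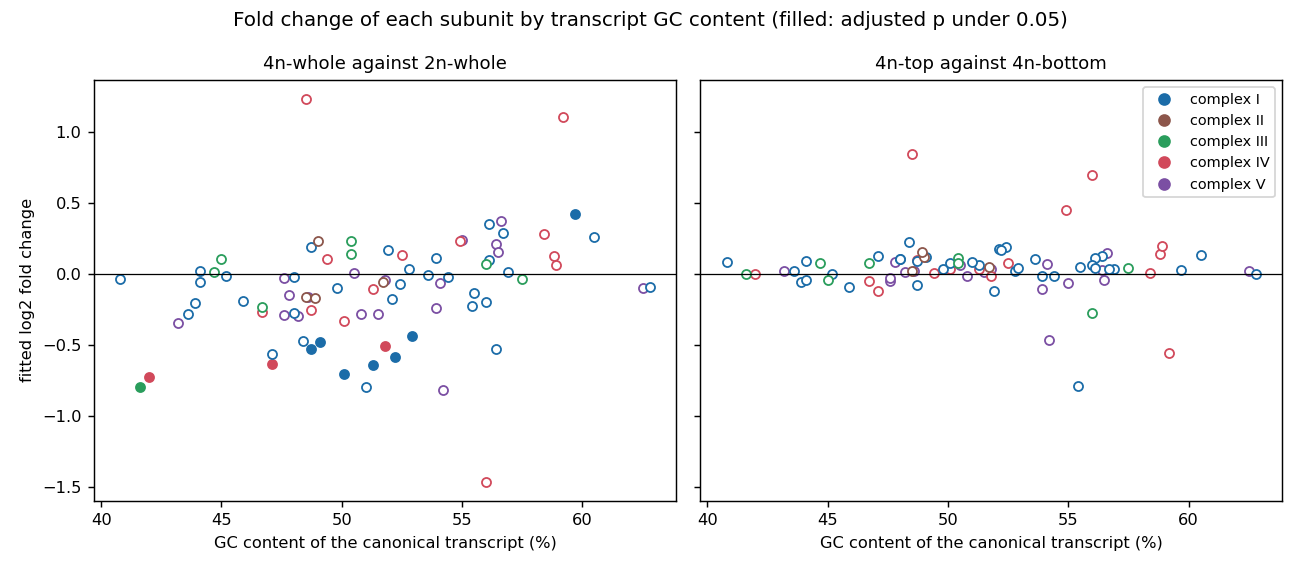
Fitted log2 fold change of each of the 84 members against the GC content of its canonical transcript, for 4n-whole over 2n-whole (left) and 4n-top over 4n-bottom (right). Colours give the complex and filled points passed an adjusted p of 0.05. On the left Uqcrb and Cox7b lie at the low GC end with the most negative called values and Ndufb7 near the high end (rho = 0.39), and on the right no slope is visible (rho = 0.08).

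Within tetraploid cells, 4n-top (enriched for mononucleated cells) was set against 4n-bottom (enriched for binucleated cells). None of the 84 members passed, none had an unadjusted p under 0.05 (2.79% of all genes did), and DESeq2 with the mouse block also called 0. Of all tested genes 0.0114% passed, so a count of 0 is near the background. Summed levels were 8615 ± 779 CPM in 4n-bottom (SD, n = 4) and 8931 ± 227 CPM in 4n-top (n = 3). The median log2 fold change was 0.04 (all genes 0.00), 61 members were positive and 23 negative (50.2% and 49.8% of all genes), and within mice 2, 3 and 4 the medians were 0.06, 0.06 and -0.10.

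For the 73 members with a mean of at least 10 CPM, fitted log2 fold changes of 4n-top over 4n-bottom lay between -0.12 (Ndufa4) and 0.20 (Cox8a), with a median standard error of 0.12. Cox8a, the liver form of a small complex IV subunit, was at 89.1, 108, 119 and 129 CPM in 4n-bottom and at 130, 133 and 127 CPM in 4n-top (0.20 ± 0.10, unadjusted p = 0.070, edgeR). Without the 4n-bottom library of mouse 1, which was the lowest, the median over the members was 0.01. In complex I, Ndufa10 had 0.18 ± 0.11 and the sparsely counted Ndufb8 -0.79 ± 0.44. In complex II, Sdhd had 0.15 ± 0.10 and Sdhc 0.12 ± 0.11, in complex III Uqcr11 had 0.12 ± 0.12 and Uqcr10 -0.27 ± 0.24, and in complex V Atp5me had -0.10 ± 0.12. Cox6a1, the liver form of its pair, had 0.14 ± 0.10, and the inhibitor of ATP hydrolysis Atp5if1 -0.46 ± 0.52. Each of these had an adjusted p of 1 (edgeR). Pericentral sums were 914 to 2240 CPM in 4n-bottom and 945 to 3410 CPM in 4n-top, and 1 pericentral gene fell in 4n-top.

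The other 4 comparisons also held no called member (edgeR; DESeq2 with the mouse block likewise 0). In 4n-bottom against 2n-whole, 9 members had an unadjusted p under 0.05 (10.2% of all genes did) and 0.492% of all genes passed. In 4n-top against 2n-whole, 11 members had one (11.3% of all genes) and 1.06% of all genes passed. In 4n-whole against 4n-bottom, 10 members had one (5.57%) and 0.00572% passed. In 4n-whole against 4n-top, 15 members had one (4.00%) and 0% passed. Medians of the log2 fold change over the members, in this order, were -0.01, 0.04, -0.08 and -0.12. In 4n-whole against 4n-top 69 of 84 members were negative (50.1% of all genes), and the medians within mice 2, 3 and 4 were -0.25, -0.04 and -0.11. Summed levels of complexes II, IV and V were lower in every 4n-whole library than in every 4n-top library on the TMM scale, whereas those of complexes I and III overlapped. The gap was small in complex IV, where the highest 4n-whole sum was 1230.7 CPM and the lowest 4n-top sum 1237.3 CPM. As shares of all counts the groups overlapped in complexes II, IV and V too. How many of all genes separate in this way is not given here, and 4n-top has no library of mouse 1.

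The 11 members called in 4n-whole can be followed in the 2 tetraploid fractions, which are compared with the same 2n-whole libraries and so share controls. Cox7b had -0.27 ± 0.16 in 4n-bottom and -0.27 ± 0.17 in 4n-top, Uqcrb -0.40 ± 0.18 and -0.40 ± 0.20, and Ndufc2 -0.35 ± 0.14 and -0.42 ± 0.15. Ndufa4 had -0.12 ± 0.15 and -0.24 ± 0.17, and Ndufb7 0.26 ± 0.12 and 0.29 ± 0.14. None passed the adjusted threshold in either fraction, although the values given here had the same sign as in 4n-whole. A call missing in the fractions does not show that they differ from 4n-whole. Set directly against 4n-bottom and 4n-top, 4n-whole had no called member (smallest adjusted p = 0.49 and 0.98, edgeR). Group means of Cox7b were 76.0 CPM in 4n-whole, 102 CPM in 4n-bottom and 92.4 CPM in 4n-top, and those of Uqcrb 61.3, 79.6 and 69.5 CPM. Ndufb7 was at 76.0, 68.5 and 72.4 CPM in the same order. A mixture of the 2 fractions would lie between them, and why 4n-whole lay outside was not tested. The 11 were chosen by their difference between 4n-whole and 2n-whole, and this choice favours 4n-whole means beyond those of the fractions. The 4n-top means also lack mouse 1. Ndufa4 was at 38.6, 36.2, 24 and 42.8 CPM in 4n-bottom and at 30.6, 30.9 and 31.2 CPM in 4n-top, so 4n-bottom overlapped 2n-whole and 4n-top lay below it.

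Subunits encoded by mitochondrial DNA had larger fitted differences than most nuclear members, although nuclear copies of mitochondrial sequence can share their reads. Of these 13 genes, 12 fell in 4n-whole against 2n-whole (median log2 fold change -1.46), 8 in 4n-bottom and 11 in 4n-top against 2n-whole, and 0 in 4n-top against 4n-bottom (median -0.46; edgeR). A few of the 13 genes make up most of their summed counts. In 2n-whole mouse 2, mt-Co1 was at 16287 CPM, mt-Cytb at 8069 CPM and mt-Nd5 at 7452 CPM. In the same library mt-Co2 was at 10.8 CPM, mt-Co3 at 5.22 CPM and mt-Atp8 at 0.785 CPM. The ratio of the summed counts of the 13 genes to those of the 84 nuclear members needs no scaling. It was 3.71, 4.95, 5.4 and 4.52 in 2n-whole mice 1 to 4, 3.08, 1.40, 2.36 and 1.25 in 4n-whole, 4.57, 2.43, 1.69 and 1.5 in 4n-bottom, and 1.42, 1.84 and 1.37 in 4n-top mice 2 to 4. Every 4n-whole and 4n-top library lay below every 2n-whole library, and 1 of 4 4n-bottom libraries, from mouse 1, lay inside the 2n-whole range. The nuclear members took 0.690 to 0.861% of all counts in 2n-whole and 0.828 to 0.959% in 4n-whole, and 0.951 to 1.1% and 0.976 to 1.1% of the counts outside mitochondrial and ribosomal RNA genes.

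**Figure D5:**
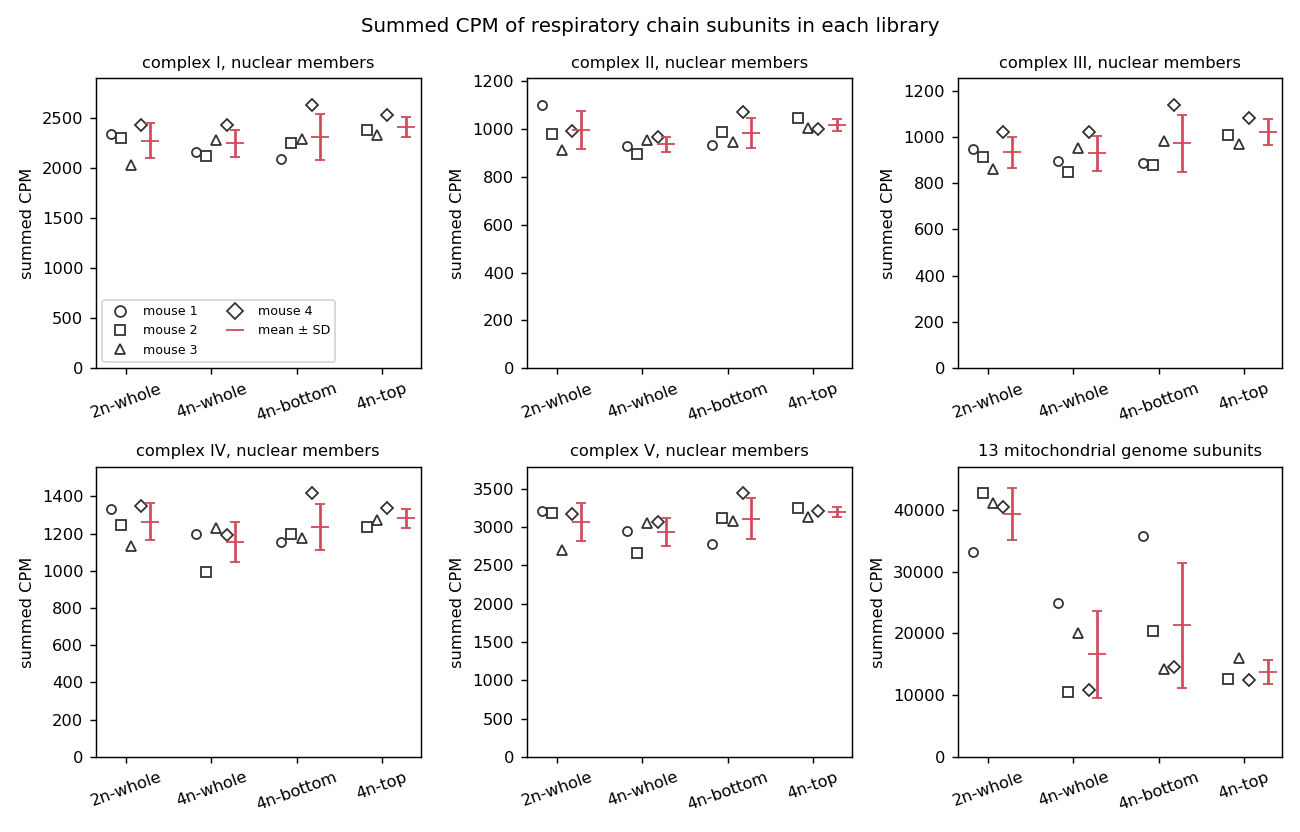
Summed CPM (TMM-scaled) of the nuclear members of each complex and of the 13 subunits of mitochondrial DNA, 1 point per library with mouse as marker shape, and the mean ± SD of each group in red. The nuclear sums of 2n-whole and 4n-whole overlap in every complex, whereas the mitochondrial sum is 39370 ± 4260 CPM in 2n-whole and 16600 ± 7110 CPM in 4n-whole. The mitochondrial sum rests mainly on a few of the 13 genes, such as mt-Co1. As a share of all counts the nuclear sum was higher in 4n-whole (median 0.846%) than in 2n-whole (0.792%).

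Other nuclear genes of the pathway were taken from lists of genes around the complexes. These lists are small, and whether their shares of called genes differ from the 5.47% of all genes in 4n-whole against 2n-whole was not tested. Of 46 tested assembly factors, which build the complexes without staying in them, 0 passed in 4n-whole against 2n-whole (median log2 fold change -0.03) and 0 in 4n-top against 4n-bottom. Of 16 genes for electron carriers and their synthesis, 1 rose in 4n-whole: Coq8a, needed for ubiquinone synthesis, from 534.5 ± 87.9 to 663 ± 137 CPM (SD, n = 4 each; 0.30 ± 0.08, adjusted p = 0.027, edgeR). Of 13 regulators of mitochondrial gene expression, Ppargc1a, a coactivator of respiratory genes, fell from 23.5 ± 8.30 to 15.5 ± 5.25 CPM (-0.59 ± 0.13, adjusted p = 0.0068, edgeR), being at 20.4, 13.2, 28.8 and 31.4 CPM in 2n-whole and at 11.7, 10.5, 21.3 and 18.6 CPM in 4n-whole, lower in each mouse. The related coactivator Pprc1 rose from 16.8 ± 5.59 to 24.9 ± 13.2 CPM (0.50 ± 0.15, adjusted p = 0.041, edgeR). In 4n-top against 4n-bottom none of these lists had a call.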

How the data were processed

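RNA of 15 sorted hepatocyte libraries from 4 mice was sequenced after a stranded SMART-Seq library preparation. The authors aligned reads to GRCm39 with STAR (2.7.11a in the submitters' processing notes) and deposited raw counts per gene from featureCounts (Subread); its annotation and its strand and multi-mapping settings are not given in the sources used here. Counts without strand or copy information cannot separate overlapping or near-identical genes.

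Here, genes were filtered (filterByExpr, minimum count 10, minimum total 15), scaled by TMM and fitted on all 15 libraries with population and mouse in edgeR 4.0.16 (R 4.3.3), a quasi-likelihood F test adjusted over 17488 genes; a call is an adjusted p under 0.05. The study used ComBat-seq and DESeq2, run here as alternatives (sva 3.50.0, DESeq2 1.42.0). The labels' subject number is the same animal across groups, and mouse was the replicate block because the study adjusts for the individual mouse. Residuals of libraries from the same mouse correlated at 0.0845 to 0.227 (21 pairs). Pairs from different mice were not set beside them, so these values do not by themselves show the pairing. Counts from any pair of libraries differed in at least 94.6% of tested genes. p-values rest on the spread left between libraries once population and mouse are fitted, so they reflect how differences between populations vary over mice. TPM used canonical transcript lengths of GENCODE M39. log2 CPM within a mouse used a prior count of 2. The fit was tested on simulated data.

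Named genes were, per complex, the 3 smallest p in 4n-whole against 2n-whole, the 2 smallest in 4n-top against 4n-bottom and the highest level per length, with all called members, 2 lists (core and landmark subunits, tissue or state isoforms) and, of the surrounding lists, called genes. Atp5f1d, Atp5f1e, Atp5f1b and Ndufa13, and the genes compared for isoforms or overlaps, were named after their values were seen. Values of 1 item are not reported here. The members and lists were chosen with earlier results of these data known. Alternatives covered test, scaling, filter, libraries, covariates, GC content and length, and left-out mice. Total-count scaling and left-out single libraries were chosen after seeing the data.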

Additional observations from a re-analysis of the deposited data

Results flagged for a closer look

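In groups of 4 libraries, 111 sets of values (named members and summed levels) were checked for 1 library apart from the other 3, and 7 stood out, where chance gives about 1 in 20. Cox7b in 4n-bottom mouse 3 was at 69.8 CPM against 109 to 115 CPM in the other 4n-bottom libraries. Ndufb4 in 2n-whole mouse 3 was at 8.21 CPM against 15.3 to 15.6 CPM, and the complex V sum in the same library was 2690 CPM against 3170 to 3210 CPM. Ndufs5 in 4n-whole mouse 2 was at 25 CPM against 38.4 to 39.9 CPM, and the complex IV sum there was 995 CPM against 1190 to 1230 CPM. Sdhd in 4n-bottom mouse 4 was at 112 CPM against 84.4 to 89.0 CPM, and the complex IV sum there was 1420 CPM against 1150 to 1200 CPM.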

How the results depend on the processing

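In 4n-whole against 2n-whole the count of 11 called members became 0 without the replicate block (16 at an unadjusted p under 0.05), 0 with the non-parenchymal covariate, 0 with the lobular covariate, 4 with only the compared populations, 21 with ComBat-seq before DESeq2 (6 higher, 15 lower) and 20 with total counts (16 higher, 4 lower), where 5 of the 11 kept their call. Leaving out 1 mouse gave 0 to 20. Without 4n-whole replicate 2, or without it and 4n-bottom replicate 1, it was 4; without the latter alone it was 11. The other settings gave 8 to 15. Except for the covariate fits and the fold limit, the share of all tested genes called under each setting is not given here. The counts under these settings, here and in the other comparisons, thus cannot separate a change of the members from one of all genes. The median of -0.08 became 0.13 with total counts and otherwise lay between -0.24 and -0.02.

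In 4n-bottom against 2n-whole 1 member passed with ComBat-seq, 1 without the filter and 1 with only the compared populations. In 4n-top against 2n-whole 1 passed with ComBat-seq, 3 with only the compared populations and 3 with total counts, and the median became -0.08 with the non-parenchymal covariate and 0.21 with total counts. In 4n-whole against 4n-bottom 1 passed with ComBat-seq, 2 without the filter and 0 to 4 on leaving out 1 mouse. The cause was not tested. 4n-top against 4n-bottom and 4n-whole against 4n-top had 0 called members in every setting run, with and without the replicate block. Of the 12 results tried, 211 alternative values lay within 1.5 times the count or within 1 SD over mice of the median and 23 did not. Many of the 211 were counts of 0 called members that stayed at 0. The tally therefore says little about the count of 11 in 4n-whole against 2n-whole, which moved in many settings.

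ComBat-seq and the fit without a filter covered more genes and moved the median of all genes by -0.16 and -0.13 in 4n-whole against 2n-whole. With 3 or 4 mice and a median standard error of 0.11 to 0.12 (log2), small shifts stay undetected, and members below 10 CPM are poorly measured.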
